A study of Canis lupus familiaris with 31 samples.

Results

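The 10 genes described here are NR3C1, FKBP5, TSC22D3, DUSP1, KLF9, PER1, PER2, PER3, NR1D1 and ARNTL, which respond to glucocorticoids or form part of the circadian clock. They were chosen by gene symbol, each had exactly 1 of the 32704 rows of the table of counts, and all 10 were among the 13918 genes that passed the filter on low counts. RNA from whole blood of 31 client-owned Miniature Schnauzers was sequenced with 1 library per dog. The dogs were 13 HTG cases (high triglycerides in fasting serum, above the cut-off of the study; 8 males and 5 females) and 18 controls with normal triglycerides (10 males and 8 females). All were older adults sampled after food had been withheld, dogs taking glucocorticoids or suspected of an endocrine disease were not recruited, and a screen for hypercortisolism had been run on all cases and on most, though not all, of the controls. The hour at which each dog was bled is not given in the sources used here.

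Cortisol acts through the glucocorticoid receptor, which rests in the cytoplasm with HSP90 chaperones, moves to the nucleus when it binds hormone, and raises or lowers the transcription of its target genes. FKBP5, TSC22D3, DUSP1, KLF9 and PER1 are widely used as target genes of the receptor in blood cells and other tissues. In the clock, ARNTL and its partner CLOCK switch on the PER and NR1D genes, whose products then repress this pair, so that the levels of several of these transcripts rise and fall over the day. Blood cortisol itself changes over the day and with stress, and many leukocyte types respond to it.

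The total count per dog ranged from 14524659 to 41533599. Levels are given as CPM, a gene's count scaled to a common library size, computed from library sizes normalized with the TMM method. Because transcript lengths were not used, the levels of different genes are not compared with each other. Control 03 and case 01 stood apart from the other libraries with the lowest TMM scaling factors (0.53 and 0.75, against 0.83 in case 08, the next). The 20 genes with the highest totals made up 42.6% of the counts in control 03. In case 01 their share was 28.7%, within the range of the other dogs. In addition, 10 dogs (5 cases and 5 controls) had higher counts on rows of small non-coding RNAs than the other 21. These are called the high and low side of the small RNA split, whose origin is not given in the labels. The study prepared libraries of 10 dogs, also 5 cases and 5 controls, earlier for a pilot, but does not name them, and whether they are the high side was not tested. In whole blood, fewer cells of a type and less RNA per cell cannot be told apart.

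None of the 10 genes differed between cases and controls in edgeR's quasi-likelihood test with the threshold set at an adjusted P of 0.05. Over all genes tested, 5 of 13918 (0.0359%) passed this threshold and all 5 were higher in cases. This count lay between 1 and 154 when each dog was left out in turn, and the 154 came from leaving out control 03, without which none of the 10 genes passed either. DESeq2 passed 84 genes, again with none of the 10 among them. With no adjustment, 1 of the 10 genes, FKBP5, was lower in cases at P under 0.05, against 4.76% of all genes tested that were lower in cases and 9.81% that differed in either direction. This count of 1 became 2 without case 08 (with DUSP1) and 2 without case 09 (with PER1), and it stayed at 1 when any other dog was left out. With the score of neutrophil or platelet marker genes as a covariate it was 3 (with DUSP1 and TSC22D3), and with the T cell score it was 4 (with PER1 too). The log2 fold change of cases over controls was below 0 for all 10, with a median of -0.08 against -0.02 over all genes tested, and for most of the 10 it was smaller than its standard error.

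**Figure D1:**
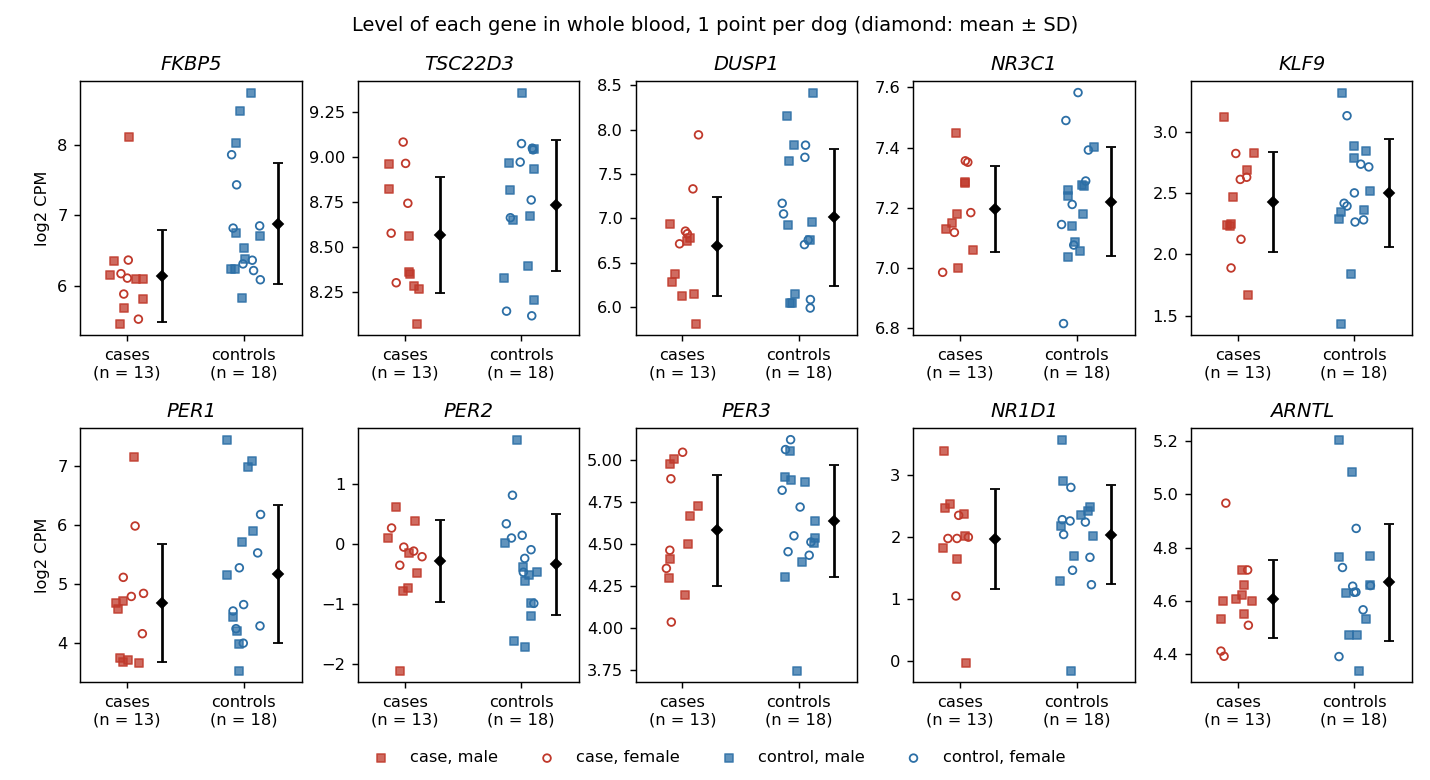
Level of each of the 10 genes (log2 CPM, 1 point per dog) in 13 cases and 18 controls, with males as squares and females as open circles and the mean ± SD as a diamond with bars. In FKBP5, 1 case lies above the median of the controls, and in every gene the values of cases and controls overlap.

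NR3C1 encodes the glucocorticoid receptor. Its level ranged from 127 to 175 CPM in the cases (median 145) and from 113 to 192 CPM in the controls (median 150). The groups overlapped over nearly their whole ranges, and the log2 fold change was -0.03 (SE 0.06, adjusted P = 0.922 in edgeR). Over the 31 dogs the level varied by 1.70-fold between the lowest and the highest dog, with an SD of 0.16 on the log2 scale. Of the 1000 genes nearest in mean level, 17.4% had a smaller SD.

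FKBP5 encodes a co-chaperone of the receptor that lowers its affinity for hormone and is itself induced by the receptor. Its level in the cases ranged from 44.0 CPM in case 05 to 275 CPM in case 09, with a median of 68.4. In the controls it ranged from 56.9 CPM in control 03 to 428 CPM in control 13, with a median of 98.4. All but 1 of the 13 cases lay below the median of the controls, 4 cases lay below the lowest control, and 2 controls lay above the highest case. The mean was 80.3 ± 59.8 CPM in cases (SD, n = 13) and 143 ± 107 CPM in controls (SD, n = 18).

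The log2 fold change of FKBP5 was -0.83 (SE 0.31), with an unadjusted P of 0.0102 and an adjusted P of 0.333 in edgeR, so that the difference did not pass the threshold. DESeq2 gave an adjusted P of 0.185. Leaving out case 09, the only case above the control median, gave a log2 fold change of -1.16 and an adjusted P of 0.113, and leaving out control 03 gave -0.89 and 0.119. Leaving out control 13, the highest control, gave -0.65 and 0.397, and leaving out control 05 gave -0.71 and 0.409. Within the high side of the small RNA split the log2 fold change was -0.80 (SE 0.64), and within the low side it was -0.93 (SE 0.30), with adjusted P-values of 1.00 and 0.293. In the low side, the 8 cases lay between 56.3 and 82.3 CPM and the 13 controls between 67.8 and 355 CPM.

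TSC22D3 encodes GILZ, a leucine zipper protein through which glucocorticoids restrain inflammatory signals. It ranged from 269 to 543 CPM in the cases (median 378) and from 277 to 657 CPM in the controls (median 443). Only 4 of the 13 cases lay above the control median, but the ranges overlapped almost fully, and the log2 fold change of -0.18 (SE 0.12) had an adjusted P of 0.669 in edgeR. Control 03 held the highest level.

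DUSP1 encodes a phosphatase that switches off MAP kinases. It ranged from 56.2 to 246 CPM in the cases (median 107) and from 63.5 to 342 CPM in the controls (median 123), and 2 of the 13 cases lay above the control median. The log2 fold change was -0.42 (SE 0.25, unadjusted P = 0.0972, adjusted P = 0.609 in edgeR). It moved to -0.31 without control 03, which had the highest level of all dogs, and to -0.57 without case 08 (unadjusted P = 0.0226, adjusted P = 0.433). On the high side of the small RNA split it was -0.94 (SE 0.35, unadjusted P = 0.0195, adjusted P = 1.00) and on the low side -0.15 (SE 0.27, unadjusted P = 0.580, adjusted P = 0.899), and the difference between the sides was not tested.

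KLF9, a zinc finger transcription factor, was counted with 52 to 236 reads per dog. It ranged from 3.08 to 8.63 CPM in the cases (median 5.45) and from 2.62 to 9.90 CPM in the controls (median 5.42). The medians were nearly equal, and the log2 fold change was -0.08 (SE 0.15, adjusted P = 0.909 in edgeR).

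PER1, a repressor of the clock that the receptor also induces directly, varied most. It ranged from 12.5 to 141 CPM in the cases (median 25.3) and from 11.5 to 173 CPM in the controls (median 30.2). Its log2 fold change was -0.58 (SE 0.41, adjusted P = 0.677 in edgeR), with 3 of the 13 cases above the control median, and it became -1.03 without case 09 (unadjusted P = 0.0124, adjusted P = 0.418) and -0.35 without control 09 (unadjusted P = 0.375, adjusted P = 0.794). The lowest and the highest dog differed 15.0-fold, and 99.3% of the 1000 genes nearest in mean level had a smaller SD. FKBP5 (9.70-fold, 97.0%) and DUSP1 (6.07-fold, 94.9%) also varied more than most genes of a like level.

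The other clock genes showed smaller differences between the groups. ARNTL, which with CLOCK drives the clock, ranged from 20.9 to 31.2 CPM in the cases (median 24.2) and from 20.1 to 36.8 CPM in the controls (median 24.9), with a log2 fold change of -0.07 (SE 0.07, adjusted P = 0.791 in edgeR). It varied 1.82-fold over all dogs, and 19.7% of the 1000 genes nearest in level had a smaller SD. NR1D1, a nuclear receptor that represses ARNTL, ranged from 0.881 to 10.4 CPM in the cases (median 3.88) and from 0.804 to 11.7 CPM in the controls (median 4.50). Its log2 fold change was -0.07 (SE 0.27, adjusted P = 0.954 in edgeR), and its range over all dogs was 13.2-fold. The log2 fold change of NR1D1 was -0.77 (SE 0.48) on the high side of the split and 0.26 (SE 0.29) on the low side. ARNTL and NR1D1 thus overlapped between the groups while differing widely in their spread among dogs.

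PER3 ranged from 16.3 to 32.9 CPM in the cases (median 22.5) and from 13.3 to 34.7 CPM in the controls (median 24.0), with a log2 fold change of -0.06 (SE 0.12, adjusted P = 0.912 in edgeR). PER2 was close to the limit of detection, with 3 to 60 counts per dog, and ranged from 0.142 to 1.44 CPM in the cases and from 0.215 to 3.27 CPM in the controls. Its medians were 0.813 and 0.659 CPM, and the log2 fold change was -0.03 (SE 0.31, adjusted P = 0.988 in edgeR). The direction of PER2, PER3, NR1D1 and KLF9 turned under some of the alternatives tried. Within the high side of the small RNA split the log2 fold change was -0.42 (SE 0.28) for KLF9 and 0.25 (SE 0.22) for PER3, and within the low side it was 0.087 (SE 0.18) for KLF9 and -0.21 (SE 0.13) for PER3, none of them past the adjusted threshold.

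**Figure D2:**
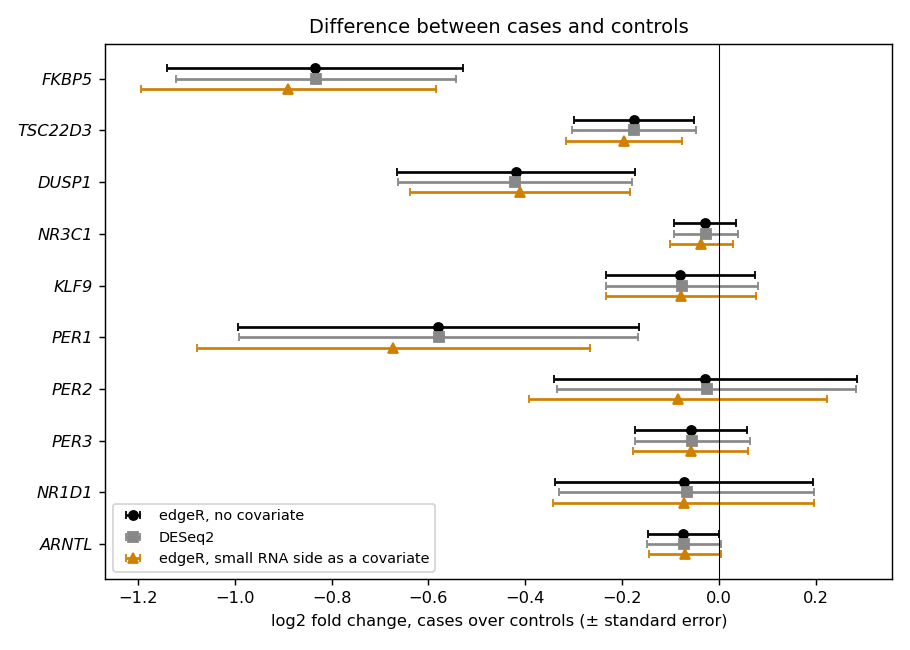
Log2 fold change of cases over controls for each of the 10 genes, with standard errors, from edgeR without a covariate, from DESeq2, and from edgeR with the small RNA side as a covariate. FKBP5 lies farthest from 0 in all 3 fits, and no gene passed the adjusted threshold in any of them.

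Sex was compared with group as a covariate. Of all genes tested, 17 (0.122%) differed between males and females at an adjusted P of at most 0.05 and 4.89% at an unadjusted P under 0.05, and none of the 10 genes was among either. PER1 had the highest log2 fold change of males over females, 0.57 (SE 0.41), followed by FKBP5 at 0.47 (SE 0.30). The medians of FKBP5 were 68.3 CPM in male and 68.9 CPM in female cases, and 98.4 CPM in male and 97.5 CPM in female controls. Those of PER1 were 18.6 CPM in male and 28.5 CPM in female cases, and 43.9 CPM in male and 24.1 CPM in female controls. The 4 dogs with the highest level of each of these genes, case 09 and controls 05, 09 and 13, were all males. The interaction of sex and group was called for 0 genes by edgeR (0%) and for 0 by DESeq2, while 3.93% had an unadjusted P under 0.05 in edgeR (547 genes). DUSP1 was the only 1 of the 10 below it. In DUSP1, the male cases had a median of 80.4 CPM against 123 CPM in male controls, and the female cases a median of 116 CPM against 120 CPM in female controls. The mean log2 CPM was 6.40 in male cases and 7.09 in male controls, but 7.13 in female cases and 6.91 in female controls. In the females the means thus ran opposite to the medians. Case 08 was the highest female case (246 CPM), and control 03, whose library stood apart, was the highest male control (342 CPM). The difference between cases and controls in males minus that in females was -1.06 on the log2 scale (SE 0.47, unadjusted P = 0.0312, adjusted P = 1.00 in edgeR).

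The other genes of these pathways were also compared. Over all genes tested, 0.0359% passed the adjusted threshold and the median log2 fold change was -0.02. An unadjusted P under 0.05 was reached by 9.81% of them in either direction and by 4.76% as lower in cases. Among 19 tested glucocorticoid targets, 0 passed the adjusted threshold and 1 had an unadjusted P under 0.05, and the median log2 fold change was -0.03. That gene was IL1R2, which encodes a decoy receptor for interleukin 1, with a median of 3.69 CPM in the cases (1.78 to 8.25) and 6.90 CPM in the controls (1.89 to 59.6). Its log2 fold change was -1.24 (SE 0.39, adjusted P = 0.246 in edgeR), and 11 of the 13 cases lay below the control median. PDK4, an inhibitor of pyruvate dehydrogenase, was low in most dogs (medians 0.696 CPM in cases and 1.02 CPM in controls) and its log2 fold change was -0.96 (adjusted P = 0.605). ERRFI1, an inhibitor of the EGF receptor, had -0.37 (adjusted P = 0.609).

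Of 11 tested genes of the receptor's chaperones and cofactors, 0 passed, with a median of -0.03. Those with the smallest unadjusted P were STIP1, which links HSP70 to HSP90 (-0.18), HSP90AA1, the chaperone of the receptor (-0.21), and NCOA2, a coactivator (0.09), with adjusted P-values of 0.553, 0.633 and 0.673 in edgeR. Of 18 other clock genes, 0 passed, with a median of -0.11. ARNTL2, a paralog of ARNTL, had the smallest unadjusted P among them, with a log2 fold change of -0.73 (SE 0.25, adjusted P = 0.287) and medians of 0.664 CPM in the cases and 1.15 CPM in the controls. TIMELESS and RORA followed, at -0.14 and -0.26 (adjusted P = 0.630 and 0.639). Of 16 immediate early genes, which rise within minutes of a stimulus, 0 passed, with a median of 0.02. IER2 and JUNB were higher (0.14 and 0.18) and EGR2 lower (-0.26) without passing, with adjusted P-values of 0.520, 0.637 and 0.633.

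Whether the 10 genes varied together from dog to dog was then examined with the 45 pairs of genes, in log2 CPM. Of these, 12 had a Pearson correlation with an adjusted P of at most 0.05 in a two-sided permutation test, 10 positive and 2 negative, and 11 of the 12 passed with Spearman's rho too. The 12 are 26.7% of the pairs, and of all pairs of tested genes 11.5% were at least as strongly correlated, in either direction, as the weakest of the 12 (r = 0.45). All 12 kept their sign within cases, within controls and on each side of the small RNA split. Within the 13 cases alone 1 of the 12 passed, and within the 18 controls 9 of them did. On the high side of the split 2 of the 12 passed, and on the low side 5. All genes of a dog share the same library.

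**Figure D3:**
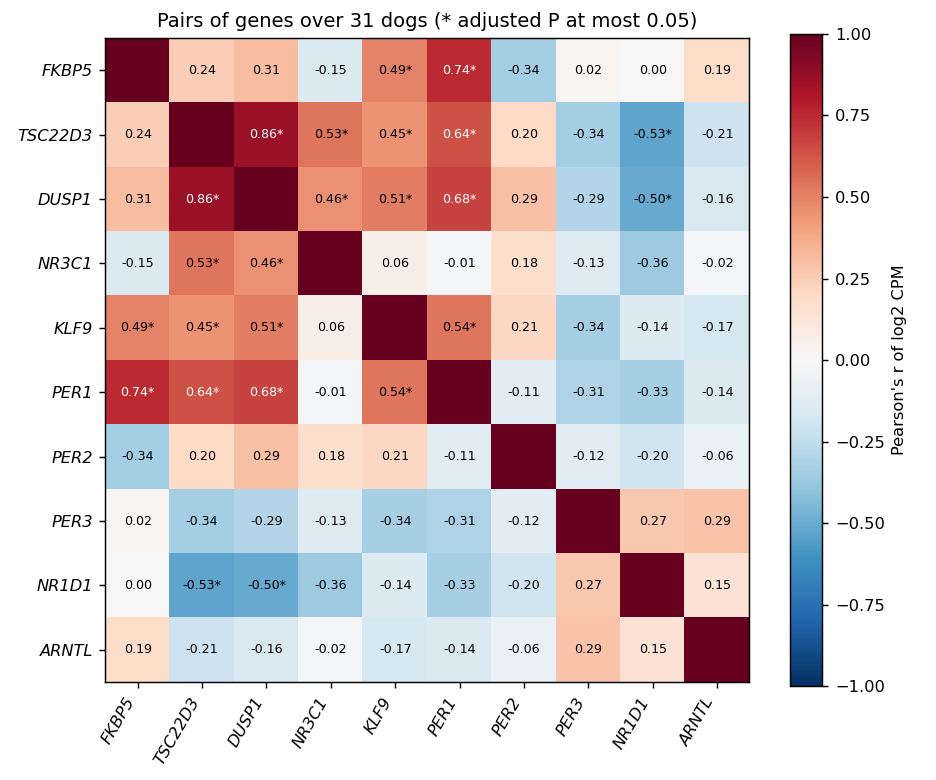
Pearson correlation of log2 CPM over 31 dogs for each pair of the 10 genes, with an asterisk where the adjusted P from a two-sided permutation test was at most 0.05. TSC22D3, DUSP1, KLF9 and PER1 were positively correlated with each other, and NR1D1 was negatively correlated with TSC22D3 and DUSP1.

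TSC22D3 and DUSP1 were the most closely related pair (r = 0.86, rho = 0.82, adjusted P = 2.2e-04 for both). The correlation was 0.85 within cases, 0.86 within controls, 0.85 on the high side of the split, 0.86 on its low side, and 0.82 without the 2 dogs farthest from the median of TSC22D3. Both were also correlated with PER1 (r = 0.64 and rho = 0.71 for TSC22D3, r = 0.68 and rho = 0.72 for DUSP1). With the neutrophil and T cell marker scores taken out, these 3 correlations were 0.79, 0.53 and 0.58 and each still passed.

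FKBP5 was correlated with PER1 (r = 0.74, adjusted P = 2.2e-04), with a lower rank correlation (rho = 0.46, adjusted P = 0.0396). The same 4 dogs held the 4 highest levels of both genes. Case 09 and controls 05, 09 and 13 had 126 to 173 CPM of PER1, against at most 72.0 CPM in any other dog, and 261 to 428 CPM of FKBP5, against at most 232 CPM. Among the other 27 dogs r was 0.34 and rho 0.19, given as a description because the 4 dogs were left out for their PER1 level, which in itself lowers a correlation. Without the 2 dogs farthest from the median of FKBP5, r was 0.64 and passed. The 4 dogs came from both groups and both sides of the small RNA split, and all 4 were male.

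FKBP5 was not correlated with TSC22D3 (r = 0.24, adjusted P = 0.346) or DUSP1 (r = 0.31, adjusted P = 0.219) past the threshold, and the difference from its correlation with PER1 was not tested. KLF9 was correlated with PER1 (0.54), DUSP1 (0.51), FKBP5 (0.49) and TSC22D3 (0.45), with adjusted P-values from 0.0130 to 0.0364. With the neutrophil and T cell marker scores taken out, those with PER1 (0.51) and FKBP5 (0.48) passed, and those with DUSP1 (0.44, adjusted P = 0.0856) and TSC22D3 (0.36, adjusted P = 0.204) did not. Without case 01 and control 03, that with TSC22D3 did not pass either (0.45, adjusted P = 0.0621). All 4 no longer passed without the 2 dogs farthest from the median, where they lay between 0.33 and 0.42, and they lay between 0.10 and 0.46 within the cases. Within the controls they lay between 0.53 and 0.71, and those with DUSP1, PER1 and TSC22D3 passed. NR3C1 was correlated with TSC22D3 (0.53) and DUSP1 (0.46), and the second did not pass by rank (rho = 0.41, adjusted P = 0.0767). With the neutrophil and T cell marker scores taken out these became 0.41 and 0.30 and did not pass (adjusted P = 0.111 and 0.285), and with the small RNA side taken out the second did not pass either (0.43, adjusted P = 0.0614). Nor did the second pass without case 01 and control 03 (0.43, adjusted P = 0.0753). The same held without the 2 dogs farthest from the median of DUSP1 (0.41, adjusted P = 0.108).

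NR1D1 was negatively correlated with TSC22D3 (r = -0.53, rho = -0.57) and with DUSP1 (r = -0.50, rho = -0.58). With the neutrophil and T cell marker scores taken out these became -0.33 and -0.28 and did not pass. No pair with PER2, PER3 or ARNTL passed the threshold over all dogs. Within the controls TSC22D3 with PER3 did (r = -0.59, adjusted P = 0.0437), with r = -0.01 within the cases, and without the 4 dogs with the highest PER1 level DUSP1 with PER2 did (r = 0.48, adjusted P = 0.0491). Over all dogs the correlation of ARNTL with NR1D1 was 0.15 (adjusted P = 0.568).

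**Figure D4:**
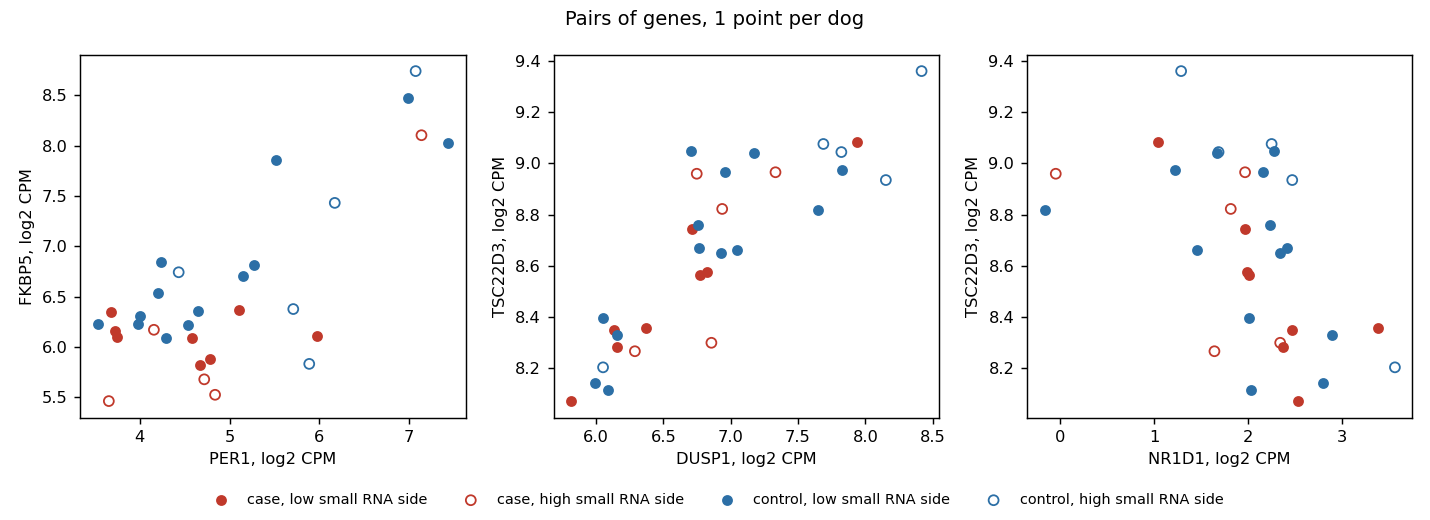
FKBP5 against PER1, TSC22D3 against DUSP1 and TSC22D3 against NR1D1 in log2 CPM, 1 point per dog, coloured by group and filled by the side of the small RNA split. In the first panel 4 dogs lie apart at the upper right, in the second the points follow a line over the whole range, and in the third they fall from left to right.

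The composition of blood was followed with marker genes of 8 cell types, each list scored as the mean of its log2 CPM after centring each gene on its mean over the dogs. The platelet score was higher in cases by 0.61 on the log2 scale (adjusted P = 0.0402, permutation test), with 8 of 9 markers having a row. Their summed level ranged from 865 to 4169 CPM in cases and from 600 to 4412 CPM in controls. The neutrophil score was higher by 0.38 (adjusted P = 0.128; 6 of 8 markers, 4817 to 9049 CPM in cases and 3146 to 15051 CPM in controls). Its markers did not move together: 4 were higher and 2 lower in cases, with a median log2 fold change of 0.065. The T cell score was lower by 0.23 (adjusted P = 0.164; 9 of 9 markers, 300.1 to 787 CPM in cases and 357 to 936 CPM in controls). The monocyte, B cell, cytotoxic, eosinophil and erythroid scores differed by 0.17, 0.24, 0.36, 0.19 and 0.72 without passing. The eosinophil score rested on 3 markers, of which 1 was higher and 2 were lower in cases. No marker with a row had a median of 0, while S100A9, FPR1, CD14, EPX, PRG2, SIGLEC8, NKG7, PF4 and GATA1 had no row. The log2 fold change of FKBP5 was -1.06 (SE 0.35) in a fit that included the platelet score, with the neutrophil score -0.89 (SE 0.32) and with the T cell score -0.89 (SE 0.30). With the T cell score, TSC22D3 moved from -0.18 to -0.30 (unadjusted P = 0.00784, adjusted P = 0.306), DUSP1 from -0.42 to -0.60 (unadjusted P = 0.00421, adjusted P = 0.261) and PER1 from -0.58 to -0.77 (unadjusted P = 0.0419, adjusted P = 0.459). With the platelet score these 3 were -0.29, -0.60 and -0.81, and with the neutrophil score -0.26, -0.56 and -0.79. None of the 10 genes passed the adjusted threshold in edgeR with any of the 3 scores.

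Of 80 pairs of a gene and a marker score, 4 passed by Pearson's r (5%) and 2 by rho. Of the pairs of a score and any tested gene outside the marker lists, 10.1% were at least as strongly correlated as the weakest of the 4, so that the 10 genes did not stand out from other genes in this count. PER3 rose with the B cell score (r = 0.60, rho = 0.58, adjusted P = 0.0156 and 0.0480) and fell with the erythroid score (r = -0.53, rho = -0.37). NR1D1 rose with the T cell score (r = 0.59, rho = 0.48), and DUSP1 fell with it (r = -0.53, rho = -0.56, adjusted P = 0.0430 and 0.0480). None of the 4 passed without the 2 dogs farthest from the median, where they lay at 0.54, -0.45, 0.39 and -0.51, or within the cases. With RLE normalization 2 of the 4 still passed, and with the small RNA side taken out 3 of them did. Without case 01 and control 03, 6 pairs passed. The correlation of PER3 with the erythroid score was then -0.26 and did not pass (adjusted P = 0.497), while the other 3 did. The 3 that joined them were FKBP5 with the B cell score (-0.52, adjusted P = 0.0475, against -0.41 and 0.0892 over all dogs), PER2 with the B cell score (0.58, adjusted P = 0.0360, against 0.30 and 0.274) and NR3C1 with the T cell score (-0.54, adjusted P = 0.0475). With the T cell score, TSC22D3 had r = -0.50, NR3C1 -0.46 and PER1 -0.43 over all dogs without passing (adjusted P = 0.0734, 0.0852 and 0.0892). These 3 passed with group taken out (-0.62, -0.51 and -0.53), and within the controls TSC22D3 (-0.71), PER1 (-0.68) and KLF9 (-0.68) did. The erythroid score with TSC22D3 (0.46) and DUSP1 (0.44) and the monocyte score with KLF9 (0.44) also missed the threshold over all dogs (adjusted P = 0.0852 for each) and passed with group taken out (0.58, 0.56 and 0.52). The part of cell composition in the levels of the genes was not tested.

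The 3 genes most like each of the 10 over the 31 dogs were taken from all tested genes with a symbol, by Pearson's r and with no test. FKBP5 was most like EXTL3 (0.83), SOAT1 (0.80) and PFKFB2 (0.79), and PER1 was most like BCL2A1 (0.85), PFKFB2 (0.85) and DHX34 (0.82). PFKFB2, a regulator of glycolysis, was thus on both lists. TSC22D3 was most like FEM1C (0.87), DUSP1 (0.86) and ARRDC3 (0.84), and DUSP1 was most like TSC22D3 (0.86), ARRDC3 (0.81) and FEM1C (0.77). NR3C1 was most like INPP5K, NADK and FHOD1 (0.79 to 0.80), and KLF9 was most like KLF4, IDS and TEK (0.64 to 0.66).

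Among the clock genes, NR1D1 was most like GATA3 (0.74), a transcription factor of T cells, followed by TWSG1 (0.73) and RHOH (0.72). PER3 was most like TASP1 (0.82), ITPR1 (0.74) and GABBR1 (0.74). Among the genes most like ARNTL were OGG1 (0.75) and SLC9A9 (0.69), and PER2 was most like FAM53B (0.73), PHLPP1 (0.72) and RFNG (0.62).

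The 10 genes were also correlated with the 64 tested genes of the 4 pathway lists, a family of 640 pairs added after the data were seen. By Pearson's r, 108 passed an adjusted P of 0.05 in the permutation test, 66 of them positive, and 71 passed by rho too. TSC22D3 had 7 of the 19 other glucocorticoid targets past the threshold, DUSP1 6 and PER1 7, all positive. Of the 18 other clock genes, TSC22D3 passed with 9 and DUSP1 with 10, 3 of them positive in each case, and of the 16 immediate early genes with 5 and 4. At the absolute r of the weakest pair that passed (0.46), TSC22D3 reached 35.9% of the pathway genes and 18.6% of all tested genes, DUSP1 37.5% and 16.2%, PER1 21.9% and 7.12%, FKBP5 7.81% and 2.73%, KLF9 7.81% and 1.14%, NR1D1 23.4% and 10.9%, NR3C1 18.8% and 11.9%, and ARNTL 7.81% and 4.16%. For PER3 the shares were 14.1% and 11.6%, and for PER2 4.69% and 5.3%. TSC22D3 followed RGS2, a regulator of G protein signalling (r = 0.83, rho = 0.83), DUSP1 followed NFKBIA, the inhibitor of NF-kB (0.76 and 0.74), and PER1 followed IRS2, an adaptor of the insulin receptor (0.79 and 0.74). FKBP5 had 4 of the glucocorticoid targets, 3 positive and 1 negative (TNFAIP3, r = -0.57), of which the highest was IL1R2 (r = 0.72, rho = 0.67), at 0.36 within cases and 0.76 within controls.

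**Figure D5:**
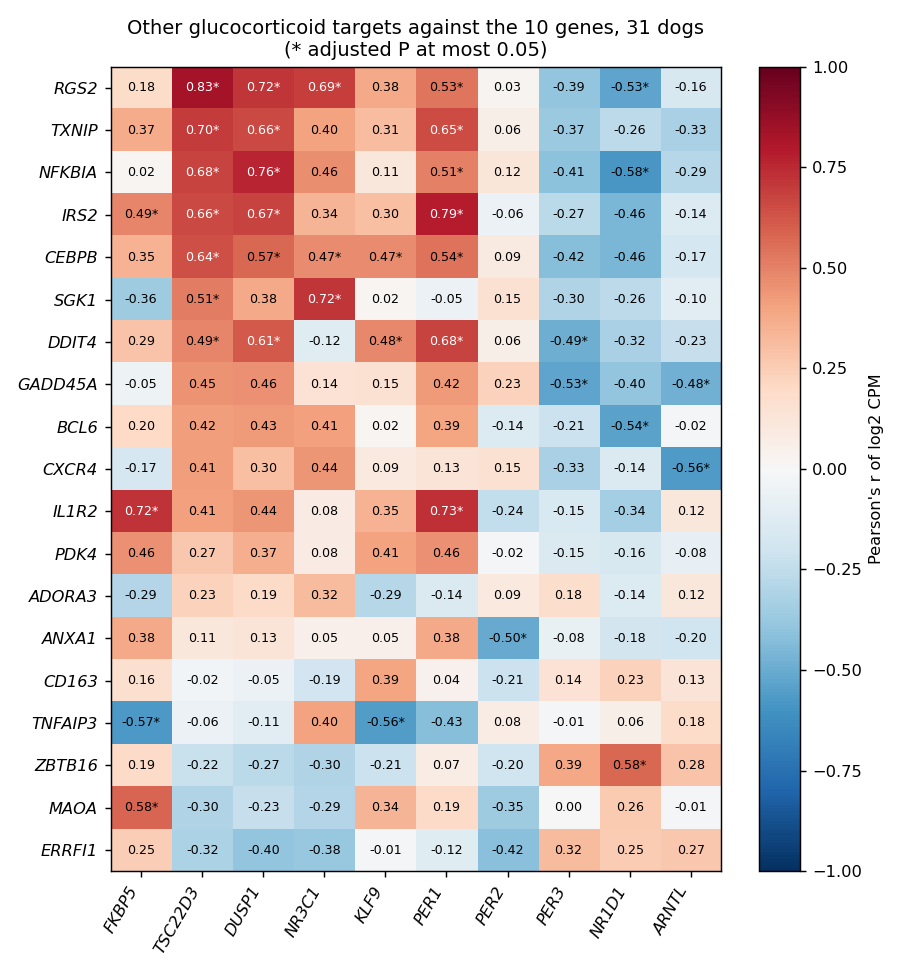
Pearson correlation of log2 CPM over 31 dogs between the 10 genes (columns) and 19 other glucocorticoid targets (rows, ordered by their correlation with TSC22D3), with an asterisk where the adjusted P over 640 pairs was at most 0.05. RGS2, TXNIP, NFKBIA, IRS2, CEBPB and DDIT4 pass with each of TSC22D3, DUSP1 and PER1, and FKBP5 has its highest with IL1R2 (0.72).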

How the data were processed

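The authors extracted RNA from whole blood, prepared libraries with a stranded total RNA kit that removes ribosomal RNA (the labels also name this kit but call the molecule polyA RNA, and they and the paper name different extraction kits), trimmed reads with Trimmomatic, aligned them with HISAT2 to the Dog10K_Boxer_Tasha genome, and deposited raw counts of read pairs per gene for the 31 dogs. The counting program, its strand setting and the annotation are not given in the sources used here. DESeq2 is named for the authors' own comparison. The study lists ambiguous reads, which it describes as multiply mapped, as unassigned. Counts of overlapping or near-identical genes may therefore lack some reads.

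Group and sex came from the labels and age from the study. Counts were normalized with TMM, filtered with filterByExpr by group and tested with glmQLFit and glmQLFTest (edgeR 4.0.16, R 4.3.3), with Benjamini-Hochberg adjustment over 13918 genes and a threshold of 0.05. Log2 CPM used a prior count of 2. Correlations and marker scores were tested with two-sided permutation tests of 100000 resamples (Python 3.11.15, numpy 2.4.6), adjusted within each family, and figures were drawn with matplotlib 3.10.9. The smallest P these can give is 1e-05. The study used batch as a covariate, but the sources do not name the pilot dogs, so none was used. Each P-value sets a difference or a correlation against the variation between dogs. The tests were run on simulated data first. Alternatives were DESeq2 1.42.0, RLE normalization, other filters, prior count 0.5, covariates, subsets of dogs, and each dog left out.

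The members and gene lists were chosen with earlier results of these data known. Named were all 10 genes, from each pathway list the genes past the threshold (at most 4) or otherwise the 3 with the smallest unadjusted P, and for each gene the 3 most similar genes. Some genes this rule names are not reported here. Correlations with single pathway genes, the shares over all tested genes set beside correlations and outlying dogs, the fits leaving out each dog, and the correlations without case 01 and control 03 or without the 4 dogs with the highest PER1 level were chosen after seeing the data.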

Additional observations from a re-analysis of the deposited data

Results flagged for a closer look

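Within each sex of each group, the highest or lowest dog was compared with the nearest other dog by Dixon's ratio, and 4 of 40 groups of values held a dog far from the others. For normally distributed values chance flags about 1 in 20, but over all tested genes 12.4% of such groups of CPM values held a dog past the same limit, mostly the highest, against 10% here. Case 09 was the highest of the 8 male cases in FKBP5, with 275 CPM against 81.6 CPM in the next dog, and in PER1, with 141 CPM against 26.2 CPM. Control 03, whose library stood apart, was the highest of the 10 male controls in PER2, with 3.27 CPM against 0.921 CPM. Control 16 was the highest of the 8 female controls in KLF9, with 8.68 CPM against 6.58 CPM.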

How the results depend on the processing

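The number of the 10 genes past the threshold was 0 in the comparison of cases and controls, of the sexes and in their interaction under every alternative run for each. In the comparison of cases and controls, the only one repeated with each of the 31 dogs left out in turn, it then lay between 0 and 0. The log2 fold change of FKBP5 then lay between -1.16 and -0.65, of PER1 between -1.03 and -0.35, of DUSP1 between -0.57 and -0.31 and of TSC22D3 between -0.22 and -0.14. Over all genes, the 5 calls became 154 without control 03, 23 without case 12, 12 without case 08, 10 without control 18, 9 without control 13, 8 without case 07, 1 without case 01, and 2 or 3 without each of cases 03, 05 and 09 and controls 06, 07, 10, 12, 14, 16 and 17. They became 28 without case 01 and control 03, 84 with DESeq2, 1 with at least 10 counts in every dog, 2 with the T cell score, and 0 with the neutrophil or platelet score or on either side of the small RNA split (518 and 1510 at an unadjusted P under 0.05). Same-numbered cases and controls did not pair: over 13 numbers the correlation of their deviations ran from -0.44 to 0.26, 3 were over 0.1, and 1 case was closest to its own number. With the number as a replicate block, 0 of the 10 and 0 of all genes passed, FKBP5 had -0.72, and PER2 (0.078), PER3 (0.032) and NR1D1 (0.060) turned positive. Left out in turn, cases 04, 10 and 11 and controls 03, 11 and 12 turned PER2 (0.01 to 0.18), and case 06 and control 15 turned NR1D1 (0.02 and 0.07). Other signs that turned, all far from the threshold, were PER2 with sex as a covariate (0.0044) and without case 01 and control 03 (0.18), PER3 with the neutrophil score (0.031) and on the high side (0.25), KLF9 on the low side (0.087), and NR1D1 with the neutrophil score (0.17), the T cell score (0.24) and on the low side (0.26). For males over females within the controls alone, TSC22D3 (0.0066) and DUSP1 (0.29) turned. The 12 pairs of genes past the threshold became 1 within cases, 2 on the high side, 5 on the low side, 7 without the 2 dogs farthest from the median and 6 with the neutrophil and T cell scores taken out. The 4 pairs with marker scores became 2 with RLE normalization, 10 with group taken out, 7 within controls, 6 without case 01 and control 03, and 0 within cases, on the high side, on the low side and without the 2 dogs farthest from the median. Subsets hold fewer dogs, and for the others the cause was not tested.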

Other observations

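Further values come from the pairs with pathway genes added after the data were seen, each past the adjusted threshold by Pearson's r. NR3C1 followed SGK1 (r = 0.72, rho = 0.66), a kinase, and ran opposite to FKBP4 (r = -0.63, rho = -0.59), a co-chaperone of the receptor. Of the 13 pairs of NR1D1 that passed, 6 were positive, with its paralog NR1D2 the highest (r = 0.65, rho = 0.59). Of the 8 pairs of PER3, 2 were positive, with CLOCK the highest (r = 0.59, rho = 0.44), and the lowest was the chaperone HSPA4 (r = -0.63, rho = -0.48). The part of cell composition, cortisol or hour of bleeding in these correlations was not tested.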
